A study of Mus musculus with 60 samples.

Results

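The complement system of the mouse was followed here through 31 genes, listed by symbol and all found among the 54232 gene IDs of the count table, with 1 ID each. By role they are 8 genes of the classical pathway (C1qa, C1qb, C1qc, C1ra, C1s1, C1rl, C2 and C4b), 4 of the lectin pathway (Masp1, Masp2, Mbl1 and Mbl2), 3 for C3 and the alternative pathway (C3, Cfb and Cfp), 7 of the terminal pathway (Hc, C6, C7, C8a, C8b, C8g and C9), 6 regulators (Cfi, C4bp, Serping1, Cd55, Cd59a and Clu) and 3 receptors (C3ar1, C5ar1 and C5ar2). RNA from the liver, the visceral fat and the subcutaneous fat of mice was sequenced as 60 libraries in 12 groups of 5. In each tissue the groups were a Western diet with NaKtide (WD + NaKtide), the same diet without it (WD), a control diet with NaKtide (CD + NaKtide) and the control diet alone (CD), each diet being fed for 12 weeks. The Western diet held 42% fat and the control chow 11%, and in transgenic mice NaKtide was induced by doxycycline mixed into either diet at 300 mg/kg. NaKtide copies a stretch of the Na,K-ATPase alpha subunit and was designed to block signalling from that pump through the Src kinase. The sources used here do not give the strain, sex or age of the mice, the driver of the transgene, whether mice without NaKtide carried it or ate doxycycline, or whether 1 mouse gave all 3 tissues. The transgene has no gene ID of its own, so NaKtide expression was not checked. The labels number the libraries 1 to 5 in each group, and p-values measure the spread between these libraries.

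Complement is a set of plasma and cell-surface proteins that marks microbes, dying cells and immune complexes for removal. The classical pathway starts with C1q, the lectin pathway with mannose-binding lectins, and the alternative pathway with spontaneous turnover of C3. All of them meet at the cleavage of C3 and then of C5, whose gene is Hc in the mouse, and end in a pore built from C5b, C6, C7, C8 and C9. The cleavage fragments C3a and C5a act on receptors of myeloid cells. Hepatocytes make most of the circulating components, C1q comes chiefly from macrophages and dendritic cells, and adipose tissue is a known local source of several components, factor D among them.

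The libraries held 3177783 to 9784337 counts each. By marker genes, 9 hepatocyte genes summed to 31272 to 52094 CPM (counts scaled to a common library size) in the livers, and 8 adipocyte genes to 706 to 21584 CPM in visceral and 8390.0 to 20232 CPM in subcutaneous fat. Several libraries stood apart. In 6 of the 20 visceral libraries, namely CD libraries 3, 4 and 5, CD + NaKtide library 1 and WD + NaKtide libraries 2 and 5, 14 genes of the epididymis and testis summed to 2549.9 to 36446 CPM, against 0.578 to 866 CPM in the other 14. Visceral CD library 5 also had the lowest adipocyte sum. Skeletal muscle genes summed to 64.3 to 3962 CPM in subcutaneous WD + NaKtide, 83.7 to 253 CPM in subcutaneous WD, 115 to 252670.3 CPM in subcutaneous CD + NaKtide and 7733 to 57824 CPM in subcutaneous CD. The 8 mesothelial genes, which mark the lining of visceral fat, went against the depot label in 4 libraries. Visceral WD + NaKtide library 1 had 3.89 CPM of them, against 35.2 to 277 CPM in the other 19 visceral libraries, and also the highest visceral sum of muscle genes, 1053 CPM. Subcutaneous WD + NaKtide libraries 1 and 4 and CD + NaKtide library 2 had 85.8, 44.7 and 17.9 CPM, against 1.06 to 5.33 CPM in the other 17 subcutaneous libraries. These WD + NaKtide libraries also held 217 and 196 CPM of epididymis and testis genes. Without these 4 libraries the depot comparison called 15 members and the depot difference in the diet effect 7. None of the 4 belongs to a group compared there, so only the shared estimates of spread and scaling could shift. These counts therefore cannot show whether the 4 libraries matter. Liver CD libraries 2 and 4 held 370.2 and 736 CPM of muscle genes. In these bulk tissues fewer cells of a type and less RNA per cell cannot be told apart.

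The liver held most complement transcripts. Levels between genes are compared only as the deposited FPKM, which divides by gene length. Across the 20 livers C3, the protein on which all pathways converge, had the highest median at 901 FPKM (range 498 to 1342), followed by C8g, a chain of the pore component C8, at 615 FPKM, and clusterin (Clu), a plasma inhibitor of pore assembly, at 511 FPKM. Next came Mbl2 at 448, the C1 inhibitor Serping1 at 378 and C4b at 372 FPKM. The ranges of neighbours in this order overlapped, so the order holds for medians only. In visceral fat the highest medians were those of C1qa and C1qb, 2 chains of the recognition protein C1q, at 169 and 163 FPKM, followed by C4b at 151 and C3 at 144 FPKM. Subcutaneous fat was led by C4b at 167 FPKM, the pore inhibitor Cd59a at 157, C1qa at 143 and C1qb at 127 FPKM. These medians pool the 4 groups of a tissue, and the visceral order changed between groups. In visceral CD alone Clu had the highest median at 849.6 FPKM and C1qa had 52.5 FPKM. Clu was high only in visceral CD libraries 3, 4 and 5, which were rich in epididymis and testis genes. It had 5188, 3656 and 4751 CPM there, against 177 and 116 CPM in visceral CD libraries 1 and 2. For 16 of the 31 members every liver lay above every fat library: C1ra, C1s1, C1rl, Masp1, Masp2, Mbl1, Mbl2, C3, Cfb, Hc, C8a, C8b, C8g, C9, Cfi and Serping1. C7 was the reverse, and the other 14 overlapped. How many of all genes were separate in this way is not given here, so these counts are not read as particular to complement.

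**Figure D1:**
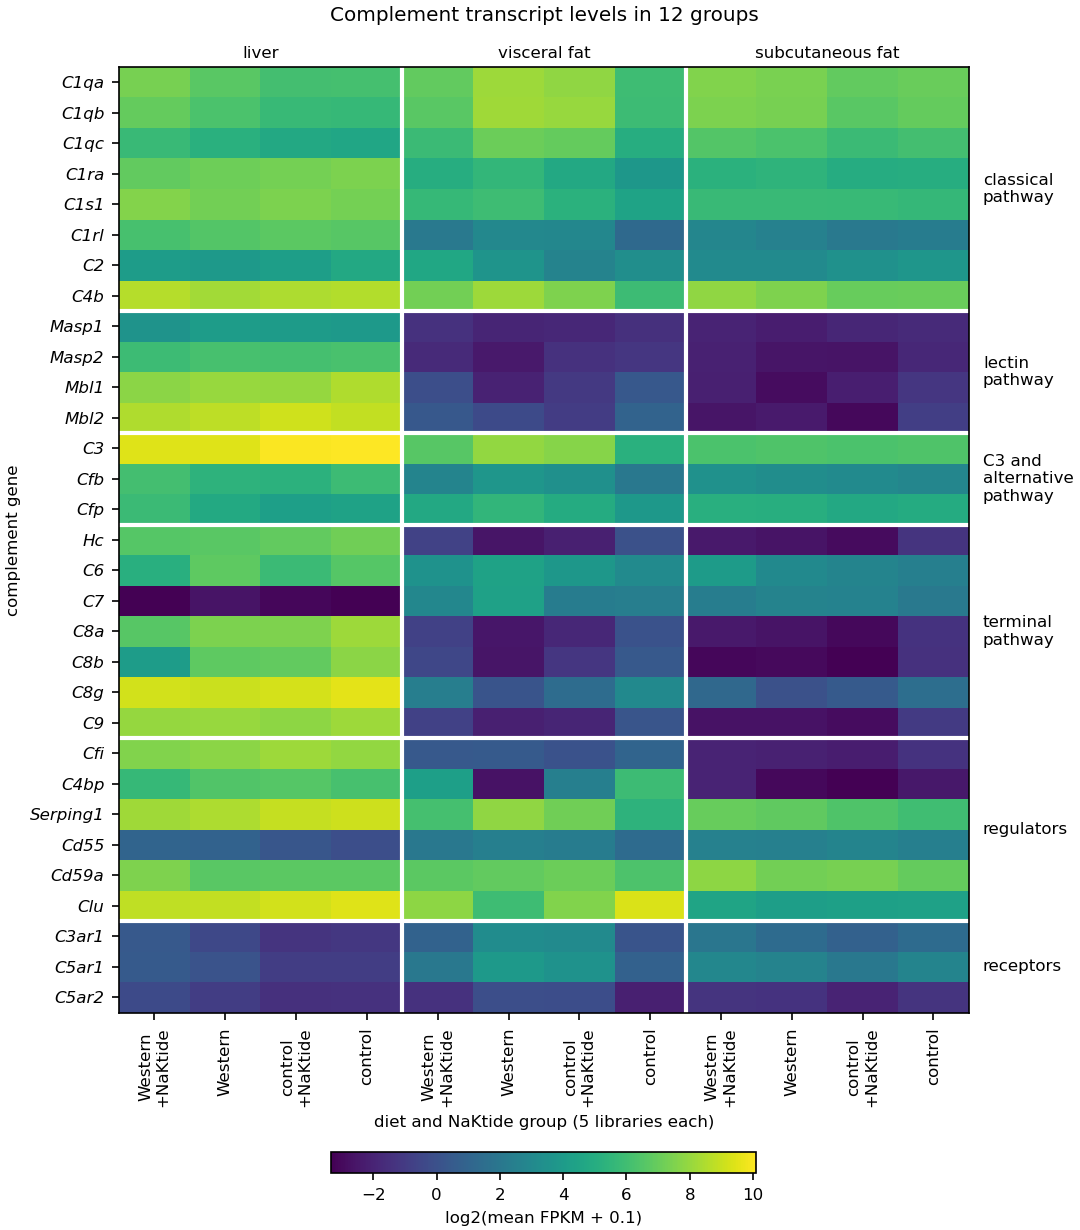
Mean deposited FPKM of the 31 complement genes (rows, by role) in the 12 groups (columns, 5 libraries each), as log2(mean FPKM + 0.1); liver groups stand left, then visceral and subcutaneous fat. Lectin pathway genes and Hc, C8a, C8b and C9 are dark in the fat groups, and C7 in the liver groups.

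On the control diet, 27 of the 31 members differed between the liver and the mean of both fat depots, 21 higher and 6 lower in liver, where 62.2% of the 18175 genes tested did (24.4% higher and 37.8% lower). The members' median log2 fold change was 3.39, against -0.40 over all genes. All 4 lectin pathway genes were higher in liver, as were 5 of 8 classical, 2 of 3 alternative pathway and C3 genes, 6 of 7 terminal genes and 4 of 6 regulators. The genes lower in liver were C1qb, C1qc, C7, Cd55, C3ar1 and C5ar1, and C1qa, Cfp, Cd59a and C5ar2 were not called. C1qb lost its call between liver and fat without any 1 of liver CD libraries 3 and 4 or subcutaneous CD library 2 (adjusted p = 0.0909 to 0.0987).

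The 8 members of smallest p in this comparison are given by library. C1ra and C1rl are a protease of the C1 complex and its relative. C1ra had 153, 182, 182, 188 and 173 FPKM in CD livers, 21, 21.5, 11.5, 9.23 and 5.37 FPKM in CD visceral fat and 38.4, 30.3, 23.1, 41.9 and 33.2 FPKM in CD subcutaneous fat. C1rl had 97.2, 97.4, 83.6, 106 and 104 FPKM in CD livers, 3.79, 3.12, 1.79, 2.05 and 0.835 FPKM in CD visceral fat and 3.54, 6.99, 3.78, 7.18 and 3.26 FPKM in CD subcutaneous fat. Both were higher in every liver than in any fat library, C1ra with a log2 fold change of 3.03 ± 0.22 (adjusted p = 3.47e-17) and C1rl with 4.84 ± 0.23 (adjusted p = 2.78e-24). Masp1 and Masp2 are the proteases that mannose-binding lectins carry. Masp1 had 12.8, 17.6, 17.6, 14.7 and 13.2 FPKM in CD livers, 0.406, 0.492, 0.252, 0.0612 and 0.0930 FPKM in CD visceral fat and 0.126, 0.433, 0.0601, 0.115 and 0.293 FPKM in CD subcutaneous fat. Masp2 had 72.3, 76.6, 63.1, 81.6 and 91.6 FPKM in CD livers, 0.761, 0.253, 0.0441, 0.636 and 0 FPKM in CD visceral fat and 0.187, 0.0677, 0.0894, 0.103 and 0.461 FPKM in CD subcutaneous fat. Their fat values lay near 0, with log2 fold changes of 6.05 ± 0.30 (adjusted p = 2.25e-23) and 8.28 ± 0.37 (adjusted p = 3.45e-25). C3 had 1342, 1285, 905, 897 and 1088 FPKM in CD livers, 56.9, 49.9, 27.8, 39.2 and 11.7 FPKM in CD visceral fat and 80.3, 103, 70.8, 86 and 78.2 FPKM in CD subcutaneous fat. C8g had 809, 643, 718, 768 and 773 FPKM in CD livers, 6.34, 3.61, 6.25, 15.3 and 9.19 FPKM in CD visceral fat and 1.99, 1.95, 2.57, 1.52 and 6.01 FPKM in CD subcutaneous fat. C3 and C8g were also separate in every library, with log2 fold changes of 4.30 ± 0.29 (adjusted p = 1.27e-18) and 7.27 ± 0.34 (adjusted p = 1.55e-24). Cfi, factor I, is the protease that inactivates C3b and C4b, and Serping1 is the inhibitor of the C1 proteases. Cfi had 278, 326, 154, 237 and 243 FPKM in CD livers, 1.47, 0.879, 2.17, 3.45 and 1.44 FPKM in CD visceral fat and 0.111, 0, 0.200, 0.102 and 1.07 FPKM in CD subcutaneous fat. Serping1 had 712, 651, 323, 438 and 599 FPKM in CD livers, 47.6, 64.5, 39.4, 35.2 and 20.1 FPKM in CD visceral fat and 74.3, 49.96, 39, 91.4 and 68.4 FPKM in CD subcutaneous fat. For Cfi the log2 fold change was 8.37 ± 0.55 (adjusted p = 7.30e-19), and for Serping1, which fat expresses as well, 3.39 ± 0.24 (adjusted p = 1.14e-17). C7, the pore component that first inserts into membranes, had 0 counts in the 5 CD livers and 4 counts in all 20 livers. Against a floor of 3 counts over the group, C7 was at least 151-fold lower in CD liver than in CD visceral fat and at least 118-fold lower than in CD subcutaneous fat. This floor covers counting error only.

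Liver-made members were read in some fat libraries together with hepatocyte genes. Visceral CD libraries 1 to 4, WD + NaKtide library 5 and CD + NaKtide library 5 held 479 to 1991 CPM of the 9 hepatocyte genes, against 1.32 to 362 CPM in the other 14 visceral libraries. Hc reached 3.67 to 16.4 CPM in the first set and 0 to 3.15 CPM in the second. C8a, another chain of C8, reached 2.02 to 11.3 CPM and 0 to 1.52 CPM in the same sets. The part of liver RNA in the fat values of these genes was not tested. C8b did not follow: visceral CD library 5 had 11.3 CPM of C8b with 1.32 CPM of hepatocyte genes. That library held 16431 CPM of epididymis and testis genes. Visceral CD + NaKtide library 1 had 33 counts of C8b, with 29.7 CPM of hepatocyte genes and 6464 CPM of epididymis and testis genes. Visceral CD library 3, with 11690 CPM of those tract genes, had 4 counts of C8b. The part of that tissue in the C8b values was not tested.

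Visceral fat held the widest changes. The Western diet raised C1q, most of the rest of the classical pathway, C3, Cfb and Cfp, the C1 inhibitor and the anaphylatoxin receptors. Of 30 members tested, 15 were higher and 2 lower in WD than in CD. Of the 17235 genes tested, 23.1% were called (10.7% higher and 12.4% lower). By role, 7 of 8 classical genes, all 3 of C3, Cfb and Cfp, and all 3 receptors rose, C7 and Serping1 rose, C8g and C4bp fell, and none of the 4 lectin genes was called. The members' median log2 fold change was 1.41, against -0.19 over all genes. In 15 of the 30 members every WD library lay above every CD library, where 8.33% of all genes did. With NaKtide on the Western diet, 7 members were lower and 1 higher than in WD (12.7% of the 17235 genes tested were called, 5.63% higher and 7.12% lower). With NaKtide on the control diet, 9 members were higher and none lower than in CD (7.25% of the 17235 genes tested were called, 5.67% higher). These directions rest on the group labels, which no NaKtide transcript could check: were the visceral CD and CD + NaKtide labels exchanged, the sign for NaKtide on the control diet would turn, and the values for WD over CD and for the interaction would change. The diet by NaKtide interaction, the NaKtide effect on the Western diet minus that on the control diet, was called for 16 members, 12 negative and 4 positive (30.7% of the 17235 genes tested were called, 16.6% higher and 14.1% lower). The median log2 values of the members were -0.45, 0.78 and -1.41 for these 3 comparisons, and those of all genes 0.01, -0.18 and 0.23. The comparisons share libraries: WD serves the diet comparison and that of NaKtide on the Western diet, and CD the diet comparison and that of NaKtide on the control diet. Calls are edgeR quasi-likelihood tests at a Benjamini-Hochberg adjusted p of 0.05. Without WD library 3 the diet comparison called 11 members. NaKtide on the Western diet called 4 members without WD library 3 and 5 without any 1 of WD libraries 4 and 5 or WD + NaKtide libraries 2, 4 and 5.

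**Figure D2:**
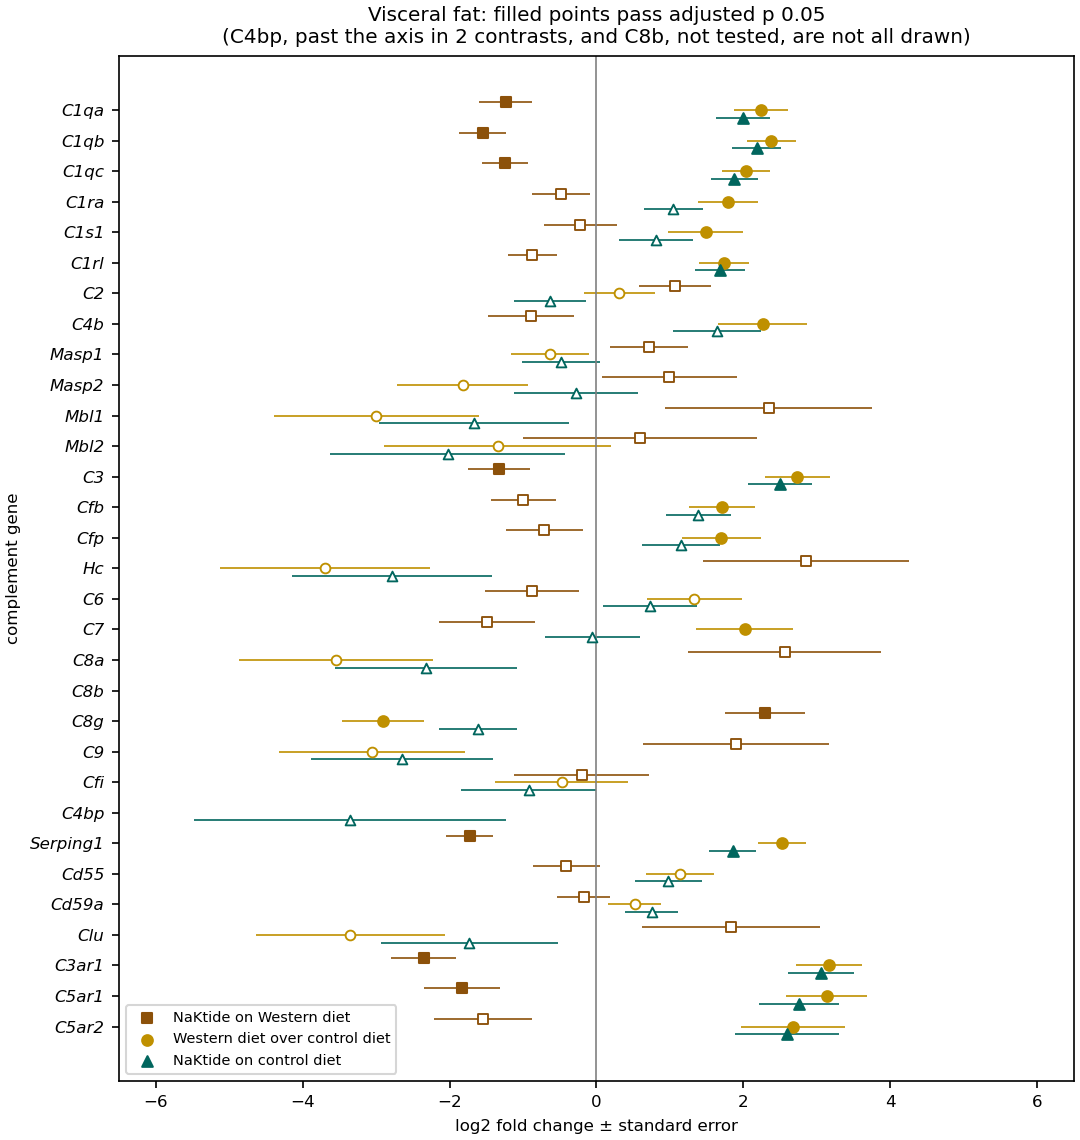
Log2 fold change with its standard error for the members in visceral fat (rows, by role): WD over CD, NaKtide on the Western diet and NaKtide on the control diet, 5 libraries a group. Filled points passed an adjusted p of 0.05, C8b was not tested, and C4bp lies past the axis for WD over CD and for NaKtide on the Western diet. C1q, C3, Serping1 and the receptors lie right of 0 for WD over CD and for NaKtide on the control diet, and left of 0 for NaKtide on the Western diet.

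The promoters of 4 members that moved together in visceral fat, C1qb, C1qc and the receptors C3ar1 and C5ar1, are shown with letters searched for 2 factors of myeloid cells. RefSeq promoters (GRCm38.p6) matched 23 of the 31 members. Each line gives the 250 bases before the RefSeq transcription start, 5′ to 3′ on the minus strand of the genome, with matches in capitals. The GENCODE gene reaches past that start, so 151 bases of the C1qc window, 4 of the C3ar1 window and 202 of the C5ar1 window, with its match, lie inside the gene. C1qb lies at chr4:136886201-136886450, C1qc at chr4:136892915-136893164, C3ar1 at chr6:122856158-122856407 and C5ar1 at chr7:16259339-16259588.
C1qb: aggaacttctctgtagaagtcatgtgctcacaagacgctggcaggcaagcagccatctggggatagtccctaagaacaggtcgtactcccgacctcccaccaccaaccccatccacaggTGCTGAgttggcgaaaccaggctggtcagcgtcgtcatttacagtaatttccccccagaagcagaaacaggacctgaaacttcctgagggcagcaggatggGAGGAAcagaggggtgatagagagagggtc
C1qc: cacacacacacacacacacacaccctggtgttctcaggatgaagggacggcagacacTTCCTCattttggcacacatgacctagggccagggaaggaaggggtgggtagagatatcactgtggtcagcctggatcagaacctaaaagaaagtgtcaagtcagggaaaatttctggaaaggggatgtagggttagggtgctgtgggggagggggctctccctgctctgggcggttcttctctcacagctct
C3ar1: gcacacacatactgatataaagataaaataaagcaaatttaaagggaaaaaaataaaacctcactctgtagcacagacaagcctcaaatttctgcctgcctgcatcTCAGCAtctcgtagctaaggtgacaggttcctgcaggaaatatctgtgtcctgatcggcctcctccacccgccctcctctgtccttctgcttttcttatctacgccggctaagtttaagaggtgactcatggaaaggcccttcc
C5ar1: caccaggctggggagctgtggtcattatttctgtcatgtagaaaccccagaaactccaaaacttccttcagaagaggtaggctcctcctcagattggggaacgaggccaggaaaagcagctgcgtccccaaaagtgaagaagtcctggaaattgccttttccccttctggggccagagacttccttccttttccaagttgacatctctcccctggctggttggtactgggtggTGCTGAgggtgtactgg

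The capitals mark GAGGAA, the core read by PU.1, and TGCTGA, a core read by Maf factors, on either strand, and the searched motifs do not overlap there. GAGGAA begins 30 bases before the start of C1qb and, on the other strand, 193 bases before that of C1qc. TGCTGA begins 131 bases before the start of C1qb and 17 before that of C5ar1, and lies on the other strand 144 bases before the start of C3ar1. Of the 23 matched members 4 hold GAGGAA, namely C1qb, C1qc, C5ar2 and Cd59a. TGCTGA is held by 9, namely C1qb, C1rl, C3, C3ar1, C5ar1, C7, C8b, Cd55 and Mbl1. As promoters these were 4 and 9 of 26, against 23.3% and 16.1% of 32851 RefSeq promoters. Another search, the STAT element TTCNNNGAA on both strands, matched 3 members, C7, C8a and Masp2, and 7.02% of all promoters. These matches are letters in a window and show no binding.

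C1q is the recognition part of the classical pathway, built from the products of C1qa, C1qb and C1qc, which neighbour each other on chromosome 4 (C1qb at chr4:136880129-136886187, GRCm38). C1qb had 207, 113, 180.3, 126 and 82.1 CPM in WD + NaKtide, against 250.1, 627, 507, 349 and 342 CPM in WD. C1qb had 348, 447, 291, 392 and 330.4 CPM in CD + NaKtide, against 115, 116, 59.3, 70.8 and 37.4 CPM in CD. Every WD library and every CD + NaKtide library exceeded every CD library, and every WD + NaKtide library lay below every WD library. C1qb log2 fold changes were 2.38 ± 0.34 (adjusted p = 0.000262) for WD over CD, -1.55 ± 0.33 (adjusted p = 0.00596) for NaKtide on the Western diet and 2.18 ± 0.33 (adjusted p = 0.000738) for NaKtide on the control diet, with an interaction of -3.73 ± 0.47 (adjusted p = 2.59e-05). C1qa had 228, 137, 212, 143 and 76.7 CPM in WD + NaKtide, against 225, 616, 412, 317 and 309 CPM in WD. C1qa had 310.2, 364, 249, 337 and 318 CPM in CD + NaKtide, against 114, 121, 63.3, 68.3 and 29.1 CPM in CD. For C1qa the WD + NaKtide and WD groups overlapped, WD + NaKtide library 1 lying above WD library 1, while the other separations were as for C1qb. C1qa log2 fold changes were 2.25 ± 0.37 (adjusted p = 0.000694) for WD over CD, -1.24 ± 0.36 (adjusted p = 0.0310) for NaKtide on the Western diet and 1.99 ± 0.37 (adjusted p = 0.00239) for NaKtide on the control diet, with an interaction of -3.23 ± 0.51 (adjusted p = 0.000225). C1qa lost its call for NaKtide on the Western diet without any 1 of WD + NaKtide libraries 2, 4 and 5 or WD libraries 2, 3, 4 and 5 (adjusted p = 0.0559 to 0.0919).

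C1qc had 186, 123, 177, 133 and 84.8 CPM in WD + NaKtide, against 208, 449, 424, 291 and 292 CPM in WD. C1qc had 279, 345, 253, 324 and 291 CPM in CD + NaKtide, against 119, 114, 70.1, 74.2 and 28.7 CPM in CD. The C1qc groups were separate in all 3 comparisons, and WD library 1 and CD library 5 were low in their groups for all 3 chains. C1qc log2 fold changes were 2.04 ± 0.32 (adjusted p = 0.000567) for WD over CD, -1.24 ± 0.32 (adjusted p = 0.0170) for NaKtide on the Western diet and 1.88 ± 0.32 (adjusted p = 0.00163) for NaKtide on the control diet, with an interaction of -3.12 ± 0.45 (adjusted p = 9.61e-05). C1qc lost its call for NaKtide on the Western diet without WD library 3 (adjusted p = 0.0738). Macrophage genes moved with C1q. The 12 macrophage markers, all above 1 CPM on average in visceral fat, summed to 424 to 1391 CPM in WD + NaKtide and 1704 to 3765 CPM in WD, and to 2280.3 to 3092 CPM in CD + NaKtide and 310.4 to 752 CPM in CD. The summed CPM of the C1q chains as a percentage of that macrophage sum was 44.6 to 58.1% in WD + NaKtide, 35.6 to 59.6% in WD, 33.7 to 41.1% in CD + NaKtide and 30.7 to 57.8% in CD. These percentages overlapped between WD + NaKtide and WD, between WD and CD, and between CD + NaKtide and CD. The part of the number of macrophages in the C1q result was not tested.

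The remaining classical genes are the C1 proteases C1ra and C1s1, the C1r-like protease C1rl, and C2 and C4b, whose products form the convertase that cleaves C3. C1rl had 21, 14.4, 20.01, 18 and 6.54 CPM in WD + NaKtide, against 27.4, 32.9, 28.5, 30.1 and 28 CPM in WD. C1rl had 22.5, 31.9, 29, 27.7 and 31.1 CPM in CD + NaKtide, against 14.6, 12.1, 6.79, 7.72 and 2.90 CPM in CD. C1rl was separate in all 3 comparisons, with WD + NaKtide library 5 and CD library 5 the lowest of their groups. It rose with log2 fold changes of 1.73 ± 0.34 (adjusted p = 0.00260) for WD over CD and 1.69 ± 0.34 (adjusted p = 0.00457) for NaKtide on the control diet, with an interaction of -2.56 ± 0.47 (adjusted p = 0.000860), while its value for NaKtide on the Western diet, -0.87 ± 0.33 (adjusted p = 0.0813), did not pass. Connective tissue genes moved as well. The 5 genes of the stellate cell list, mostly Dcn and Col1a1 here and with Lrat under 1 CPM on average, summed to 205 to 1117 CPM in WD + NaKtide and 893 to 1643 CPM in WD, and to 871 to 1459 CPM in CD + NaKtide and 123 to 590.2 CPM in CD, with WD and CD + NaKtide above CD in every library. The 7 fibroblast progenitor genes summed to 704 to 1914 CPM in WD + NaKtide and 1145 to 1783 CPM in WD, and to 987 to 1635 CPM in CD + NaKtide and 167 to 1194 CPM in CD, with overlap. Their part in the values of the C1 proteases, C3 and Serping1 was not tested. C1ra, C1s1 and C4b rose in WD over CD, with log2 fold changes of 1.79 ± 0.41 (adjusted p = 0.00703), 1.49 ± 0.51 (adjusted p = 0.0440) and 2.26 ± 0.61 (adjusted p = 0.0178). C4b ranged over 283 to 2345 CPM in WD + NaKtide, 1718 to 2301 CPM in WD, 842 to 2232 CPM in CD + NaKtide and 56 to 1034 CPM in CD. None of C1ra, C1s1 and C4b passed for NaKtide on either diet, and the interaction was called for C1ra at -1.53 ± 0.56 (adjusted p = 0.0475) and C4b at -2.53 ± 0.84 (adjusted p = 0.0304). C1s1 lost its call for WD over CD without any 1 of WD libraries 1, 3, 4 and 5 or CD libraries 3 and 4 (adjusted p = 0.0511 to 0.118). C1ra lost its call in the interaction without any 1 of WD + NaKtide libraries 2, 3, 4 and 5, WD libraries 1, 2, 3, 4 and 5, CD + NaKtide libraries 2, 3, 4 and 5 or CD libraries 3, 4 and 5 (adjusted p = 0.0518 to 0.106). C4b lost its call in the interaction without any 1 of WD + NaKtide library 2, WD library 3, CD + NaKtide library 4 or CD libraries 3 and 4 (adjusted p = 0.0515 to 0.0652). C2 was the exception among the 8, with 0.31 ± 0.49 (adjusted p = 0.635) for WD over CD, 1.07 ± 0.49 (adjusted p = 0.139) for NaKtide on the Western diet and -0.63 ± 0.49 (adjusted p = 0.395) for NaKtide on the control diet, none of which passed. C4b, C1ra and C1s1 have near-identical copies in the genome (C4a, C1rb and C1s2), and reads of C2 and Cfb can be shared with the readthrough gene Gm20547 on the same strand, so their values are less certain.

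C3 (chr17:57203970-57228136) is cleaved by every pathway, Cfb supplies the protease of the alternative convertase, and Cfp, properdin, stabilises it. C3 had 1154, 659, 497, 641 and 268 CPM in WD + NaKtide, against 1078, 1316, 2633, 1575 and 1442 CPM in WD. C3 had 898, 1489.7, 1367, 2056 and 1032 CPM in CD + NaKtide, against 375, 332, 180.0, 253 and 69.4 CPM in CD. All WD and all CD + NaKtide libraries of C3 exceeded the CD libraries, while WD + NaKtide library 1 overlapped the WD group. Without that library, which is low in mesothelial genes, C3 had -1.64 (adjusted p = 0.0267) and C1qa -1.40 (adjusted p = 0.0311) for NaKtide on the Western diet, and the comparison again called 8 members. C3 averaged 1609 ± 601 CPM in WD and 242 ± 122 CPM in CD (SD, n = 5 each). C3 log2 fold changes were 2.73 ± 0.44 (adjusted p = 0.000642) for WD over CD, -1.32 ± 0.42 (adjusted p = 0.0469) for NaKtide on the Western diet and 2.50 ± 0.44 (adjusted p = 0.00180) for NaKtide on the control diet, with an interaction of -3.82 ± 0.61 (adjusted p = 0.000231). C3 lost its call for NaKtide on the Western diet without any 1 of WD + NaKtide libraries 2, 3, 4 and 5 or WD libraries 1, 3, 4 and 5 (adjusted p = 0.0619 to 0.163). Cfb and Cfp rose in WD over CD with log2 fold changes of 1.71 ± 0.45 (adjusted p = 0.0157) and 1.70 ± 0.54 (adjusted p = 0.0342). Cfb ranged over 13.7 to 36.4 CPM in WD + NaKtide and 41.7 to 54.6 CPM in WD, without overlap, yet the NaKtide effect on the Western diet, -0.99 ± 0.44 (adjusted p = 0.125), did not pass. The Cfb interaction was -2.38 ± 0.63 (adjusted p = 0.0104). Cfb lost its call for WD over CD without WD library 3 (adjusted p = 0.0502). Cfp lost its call for WD over CD without any 1 of WD libraries 2, 3, 4 and 5 or CD libraries 3 and 4 (adjusted p = 0.0579 to 0.0796).

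**Figure D3:**
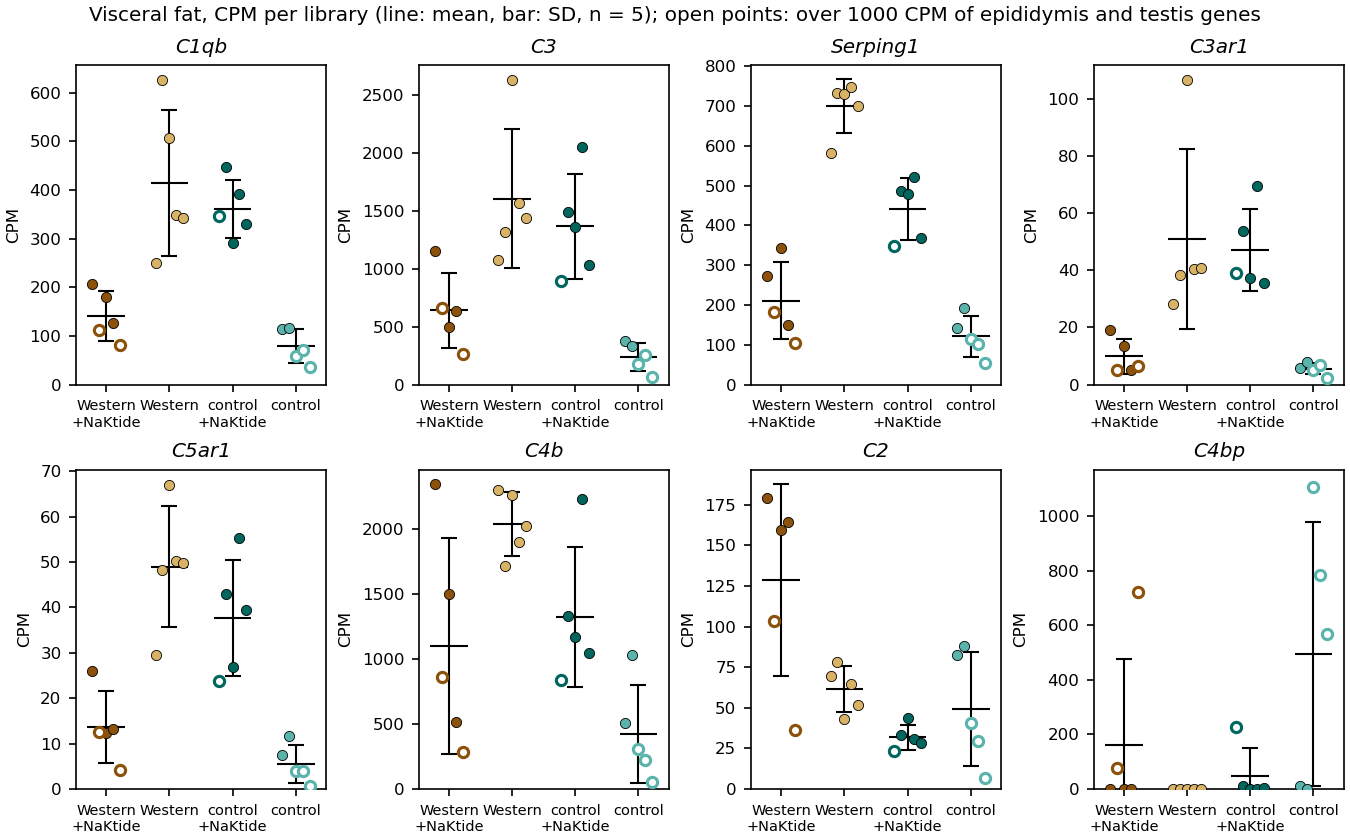
CPM by library (axis from 0, line the mean, bar the SD) of C1qb, C3, Serping1, C3ar1, C5ar1, C4b, C2 and C4bp in visceral fat, 5 libraries a group, in the order WD + NaKtide, WD, CD + NaKtide, CD. Open points are the 6 libraries above 1000 CPM of epididymis and testis genes. WD and CD + NaKtide stand above CD for C1qb, C3, Serping1, C3ar1 and C5ar1, and C4bp is high in the open points.

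The receptors C3ar1 (chr6:122847138-122856161) and C5ar1 (chr7:16246743-16259540) respond to the fragments C3a and C5a on myeloid cells, and C5ar2 is the second C5a receptor. C3ar1 had 19.1, 5.09, 13.5, 5.18 and 6.54 CPM in WD + NaKtide, against 28.4, 38.2, 106, 40.6 and 40.7 CPM in WD. C3ar1 had 39.1, 53.9, 37.4, 69.3 and 35.6 CPM in CD + NaKtide, against 5.69, 7.93, 5.14, 6.96 and 2.50 CPM in CD. C3ar1 was separate in all 3 comparisons, and WD library 3 stood far above the rest of its group. C3ar1 log2 fold changes were 3.17 ± 0.45 (adjusted p = 0.000283) for WD over CD, -2.35 ± 0.44 (adjusted p = 0.00272) for NaKtide on the Western diet and 3.06 ± 0.45 (adjusted p = 0.000607) for NaKtide on the control diet, with an interaction of -5.41 ± 0.63 (adjusted p = 1.51e-05). C5ar1 had 26.1, 12.5, 12.4, 13.3 and 4.16 CPM in WD + NaKtide, against 29.6, 48.2, 67.1, 50.2 and 49.9 CPM in WD. C5ar1 had 23.8, 43, 26.9, 55.3 and 39.5 CPM in CD + NaKtide, against 7.58, 11.7, 3.85, 3.95 and 0.659 CPM in CD. C5ar1 was separate in all 3 comparisons as well, with WD + NaKtide library 1 close to WD library 1. C5ar1 log2 fold changes were 3.14 ± 0.55 (adjusted p = 0.00120) for WD over CD, -1.83 ± 0.52 (adjusted p = 0.0290) for NaKtide on the Western diet and 2.76 ± 0.54 (adjusted p = 0.00402) for NaKtide on the control diet, with an interaction of -4.59 ± 0.75 (adjusted p = 0.000315). C5ar1 lost its call for NaKtide on the Western diet without any 1 of WD + NaKtide libraries 2, 4 and 5 or WD libraries 3, 4 and 5 (adjusted p = 0.0616 to 0.0928). C5ar2 was low, at 0.595 to 1.81 CPM in WD + NaKtide, 1.78 to 6.47 CPM in WD, 2.75 to 5.65 CPM in CD + NaKtide and 0 to 1.56 CPM in CD. It rose with 2.67 ± 0.70 (adjusted p = 0.0159) for WD over CD and 2.60 ± 0.70 (adjusted p = 0.0302) for NaKtide on the control diet, and its interaction was -4.14 ± 0.97 (adjusted p = 0.00507). C5ar2 lost its call for WD over CD without any 1 of WD library 3 or CD library 3 (adjusted p = 0.0521 to 0.0618). C5ar2 lost its call for NaKtide on the control diet without any 1 of CD + NaKtide libraries 2, 3, 4 and 5 or CD libraries 3 and 4 (adjusted p = 0.0624 to 0.102). C3ar1 and C5ar1 moved in the same directions as the 12 macrophage markers given beside C1q. The 6 neutrophil markers summed to 1.78 to 7.52 CPM in WD + NaKtide and 12.6 to 20.8 CPM in WD, and to 22.6 to 44.3 CPM in CD + NaKtide and 2.07 to 3.82 CPM in CD, separate in all 3 comparisons. Most of that sum was S100a8 and Csf3r, while Ly6g was at 0 in all 20 libraries and S100a9, Mpo and Retnlg lay under 1 CPM on average. The part of either cell type in the receptor result was not tested.

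Among the regulators, Serping1, the inhibitor of C1r and C1s (chr2:84765387-84775444), had the smallest p for WD over CD. Serping1 had 274, 183, 344, 149 and 104 CPM in WD + NaKtide, against 582, 733, 729, 748 and 700.4 CPM in WD. Serping1 had 348, 487, 478, 522 and 369 CPM in CD + NaKtide, against 142, 194, 115, 103 and 53.9 CPM in CD. All groups of Serping1 were separate in the 3 comparisons, and WD library 1 was the lowest of a tight WD group. Like Serping1, the stellate cell list given beside the C1 proteases was higher in every WD and CD + NaKtide library than in any CD library. Its sums overlapped between WD + NaKtide and WD, and those of the fibroblast progenitor genes overlapped in all 3 comparisons. The part of these connective tissue genes was not tested. Serping1 averaged 699 ± 67.7 CPM in WD and 121 ± 51.4 CPM in CD (SD, n = 5 each). Serping1 log2 fold changes were 2.52 ± 0.33 (adjusted p = 0.000158) for WD over CD, -1.73 ± 0.32 (adjusted p = 0.00257) for NaKtide on the Western diet and 1.86 ± 0.32 (adjusted p = 0.00163) for NaKtide on the control diet, with an interaction of -3.59 ± 0.45 (adjusted p = 2.77e-05). Cd55, which breaks up the convertases on cell surfaces, and Cd59a did not pass in any visceral comparison, the largest Cd55 value being 1.14 ± 0.46 (adjusted p = 0.0742) for WD over CD. C4bp, a plasma cofactor for the cleavage of C4b, and Clu followed the epididymis and testis genes. C4bp ranged over 78.1 to 1108 CPM in the 6 libraries above 1000 CPM of those genes and 0 to 11.8 CPM in the other 14. Clu ranged over 124 to 5188 CPM and 74.5 to 409 CPM in the same sets. C4bp was called lower in WD than in CD, with -9.99 ± 2.93 (adjusted p = 0.0258), and its interaction was 11.71 ± 3.47 (adjusted p = 0.0192), but it was not called in either without those 6 libraries. C4bp lost its call for WD over CD without any 1 of WD libraries 3, 4 and 5 (adjusted p = 0.0651 to 0.0700). Clu did not pass, with -3.35 ± 1.28 (adjusted p = 0.0635) for WD over CD. The part of that tissue in both genes was not tested.

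Of 6 terminal pathway members tested, C7 rose and C8g fell in WD over CD. C8g had 5.18, 6.19, 5.06, 6.08 and 27.1 CPM in WD + NaKtide, against 3.03, 3.17, 0.971, 1.35 and 1.49 CPM in WD. C8g had 6.69, 4.55, 3.41, 2.44 and 7.46 CPM in CD + NaKtide, against 12.1, 6.97, 11.7, 28.6 and 15.8 CPM in CD. C8g was lower in every WD library than in any CD library and higher in every WD + NaKtide library than in any WD library, with WD + NaKtide library 5 and CD library 4 the highest. These were also the visceral libraries with the highest hepatocyte sums, 1991 CPM in WD + NaKtide library 5 and 1897 CPM in CD library 4. CD library 5, next highest in C8g, had only 1.32 CPM of hepatocyte genes. It and the 2 highest libraries held 16431 to 36446 CPM of epididymis and testis genes, but CD library 1, at 12.1 CPM of C8g, held 337 CPM. The part of liver RNA or of that tissue in the visceral C8g values was not tested. C8g log2 fold changes were -2.90 ± 0.56 (adjusted p = 0.00232) for WD over CD, 2.29 ± 0.55 (adjusted p = 0.0118) for NaKtide on the Western diet and -1.61 ± 0.53 (adjusted p = 0.0733) for NaKtide on the control diet, with an interaction of 3.90 ± 0.76 (adjusted p = 0.00131). C7 rose with 2.02 ± 0.67 (adjusted p = 0.0392) for WD over CD although the groups overlapped, at 20.8 to 110.0 CPM in WD and 6.21 to 29.6 CPM in CD. C7 lost its call for WD over CD without any 1 of WD libraries 1, 3, 4 and 5 or CD libraries 1, 3 and 4 (adjusted p = 0.0608 to 0.0924). The interactions of Hc and C8a, 5.63 ± 1.95 (adjusted p = 0.0369) and 4.88 ± 1.81 (adjusted p = 0.0480), involve the libraries with hepatocyte genes named above, where both genes were highest. Hc lost its call in the interaction without any 1 of WD + NaKtide library 5, WD libraries 1, 3, 4 and 5, CD + NaKtide libraries 2, 3 and 4 or CD libraries 1 and 4 (adjusted p = 0.0512 to 0.119). C8a lost its call in the interaction without any 1 of WD + NaKtide libraries 2 and 5, WD libraries 1, 3, 4 and 5, CD + NaKtide libraries 1, 2, 3 and 4 or CD libraries 1, 2, 3 and 4 (adjusted p = 0.0532 to 0.216). C6 and C9 passed in no visceral comparison, with 1.33 ± 0.65 (adjusted p = 0.130) and -3.06 ± 1.26 (adjusted p = 0.0802) for WD over CD, and C8b was too low to test. The lectin genes lay at or under 7.73 CPM in all visceral libraries, and Cfi passed in none of the comparisons.

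**Figure D4:**
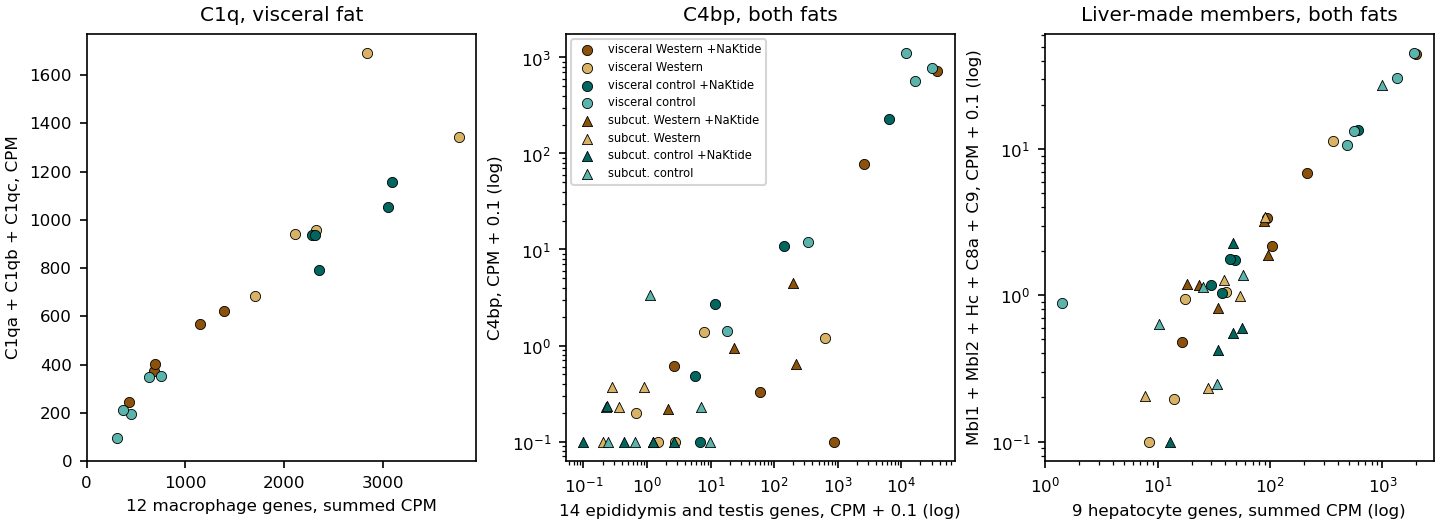
Member CPM against summed marker CPM by library: C1q chains against 12 macrophage genes in visceral fat (linear axes), C4bp against 14 epididymis and testis genes in both fats (log axes), and Mbl1, Mbl2, Hc, C8a and C9 summed against 9 hepatocyte genes in both fats (log axes). Points are libraries, coloured by group. WD and CD + NaKtide libraries lie at the high end of both axes for C1q.

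Without the 6 libraries rich in epididymis and testis genes, 13 members were called for WD over CD (11 higher and 2 lower, 12 of them shared with the 17), 13 for NaKtide on the Western diet (2 higher and 11 lower, with all 8 kept), 9 for NaKtide on the control diet (8 higher and 1 lower, 8 shared) and 14 for the interaction (11 shared with the 16). C1s1, C4b, Cfp, C7 and C4bp left the diet list, and C1ra, C4b, Hc, C8a and C4bp the interaction. The share of all genes called in this smaller fit is not given here. A change in these counts is therefore not read as particular to complement. Visceral CD lost libraries 3, 4 and 5 in this fit and kept only libraries 1 and 2. WD over CD and NaKtide on the control diet both rest on these 2 CD libraries. WD + NaKtide lost libraries 2 and 5, and CD + NaKtide library 1. C1qb kept log2 fold changes of 1.86 (adjusted p = 0.00408) for WD over CD, -1.27 (adjusted p = 0.00767) for NaKtide on the Western diet and 1.66 (adjusted p = 0.00924) for NaKtide on the control diet. Serping1 kept 2.07 (adjusted p = 0.00104), -1.44 (adjusted p = 0.00136) and 1.47 (adjusted p = 0.00659) in the same comparisons. For C3ar1 the values were 2.90 (adjusted p = 0.00848), -1.98 (adjusted p = 0.0125) and 2.84 (adjusted p = 0.0123).

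Of 26 further complement genes 21 were tested in visceral fat. In WD over CD, 9 rose and 2 fell (11 of 21, where 23.1% of all genes were called), led by Itgb2 and Itgax, chains of the C3 fragment receptors CR3 and CR4. Itgb2 averaged 143 CPM in WD and 12.8 CPM in CD, with a log2 fold change of 3.48 ± 0.44 (adjusted p = 0.000151), and Itgax averaged 82.4 CPM in WD and 5.45 CPM in CD, with 3.91 ± 0.57 (adjusted p = 0.000311). With NaKtide on the Western diet 1 rose and 4 fell (12.7% of all genes were called), among them Itgax at -4.36 ± 0.58 (adjusted p = 0.000391) and Itgb2 at -2.51 ± 0.42 (adjusted p = 0.00137). With NaKtide on the control diet 4 rose and 1 fell (7.25% of all genes were called), and the interaction was called for 9, 2 positive and 7 negative (30.7% of all genes were called). Both integrin chains are made by macrophages and other leukocytes. Cfd, factor D, had 7653, 7278, 5540, 11313 and 3668 CPM in WD + NaKtide, against 1436, 2580, 711, 1522 and 1445 CPM in WD. It had 1077, 1329, 1201, 1113 and 1014 CPM in CD + NaKtide, against 7078, 5967, 4855, 2816 and 401 CPM in CD. Every WD + NaKtide library of Cfd lay above every WD library. CD libraries 1 to 4 lay above every WD library, and CD library 5 below.

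In the liver, diet called 3 of 29 members, a share near that of all genes. Cd55 was higher and C2 and C3 were lower in WD than in CD, where 8.44% of the 12991 genes tested were called (4.75% higher and 3.69% lower). The members' median log2 fold change was -0.06, against 0.03 over all genes. At an unadjusted p under 0.05 there were 14 of the 29 members, against 3030 of the 12991 genes. C7 and C5ar2 were too low to test. C2 had 37.1, 33.3, 34.6, 60.9 and 33.9 CPM in WD livers, against 78.8, 75.3, 75.3, 62 and 70.4 CPM in CD livers. All WD livers lay below all CD livers, with WD library 4 close to the CD group. The log2 fold change of C2 was -0.86 ± 0.18 (adjusted p = 0.00501), and the call held without any single library. C3 had 1787, 2259.8, 2369, 3800.4 and 2256 CPM in WD livers, against 4583, 4453, 3136, 3081 and 3723 CPM in CD livers. WD library 4 lay among the CD livers, and the groups overlapped. C3 fell with a log2 fold change of -0.61 ± 0.18 (adjusted p = 0.0413). C3 lost its call for WD over CD without any 1 of WD libraries 1, 2, 3 and 5 or CD libraries 1, 2 and 5 (adjusted p = 0.0709 to 0.104). Cd55 had 6.10, 5.58, 4.84, 6.58 and 5.81 CPM in WD livers, against 1.66, 3.49, 1.58, 4.32 and 2.53 CPM in CD livers. The groups were separate, and Cd55 rose with a log2 fold change of 1.05 ± 0.32 (adjusted p = 0.0436). Cd55 lost its call for WD over CD without any 1 of WD libraries 1, 2, 3, 4 and 5 or CD libraries 1, 2, 3 and 5 (adjusted p = 0.0508 to 0.106). Mbl1 and C8g also lay lower in every WD liver than in any CD liver, but did not pass at -0.44 ± 0.18 (adjusted p = 0.130) and -0.45 ± 0.17 (adjusted p = 0.104), where 3.24% of all genes were separate in that direction. The diet comparison called 1 member without any 1 of WD libraries 1, 2, 3 and 5 or CD libraries 2 and 5, and 5 without WD library 4.

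**Figure D5:**
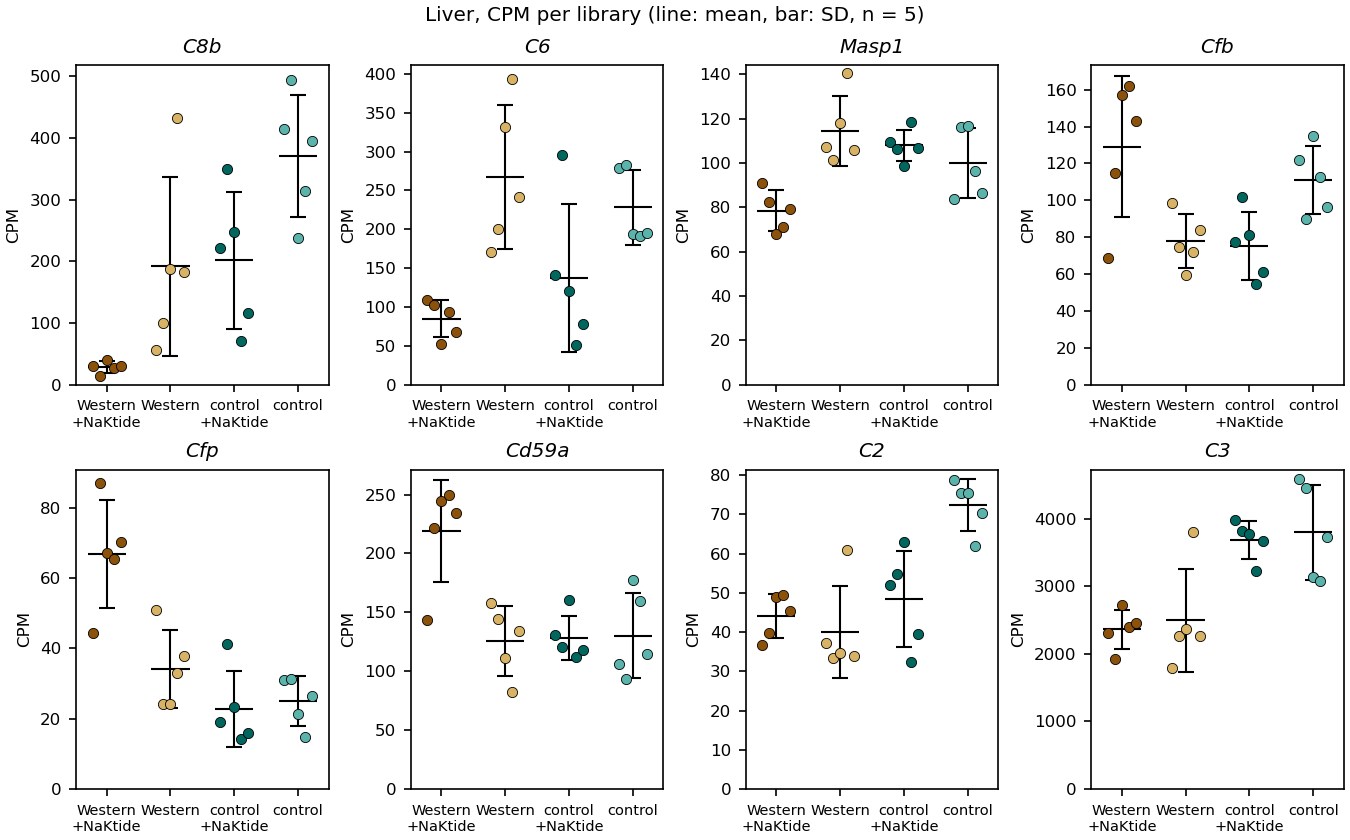
CPM by library (axis from 0, line the mean, bar the SD) of C8b, C6, Masp1, Cfb, Cfp, Cd59a, C2 and C3 in liver, 5 libraries a group, in the order WD + NaKtide, WD, CD + NaKtide, CD. C8b and C6 are lower in every WD + NaKtide library than in any WD library.

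In liver, 2 pore components and a lectin pathway protease were lower, and properdin, factor B and Cd59a higher, with NaKtide on the Western diet. So 3 members were higher and 3 lower than in WD, where 4.78% of the 12991 genes tested were called (2.25% higher and 2.53% lower). The members' median log2 fold change was -0.10, against -0.02 over all genes. C8b, the beta chain of C8 (chr4:104766317-104804548), had 31.1, 14.8, 39.6, 27.9 and 30.2 CPM in WD + NaKtide livers, against 56.6, 99.5, 188, 432 and 183 CPM in WD livers. All 5 WD + NaKtide livers lay below all WD livers, WD library 4 being the highest. C8b averaged 28.7 ± 8.95 CPM in WD + NaKtide and 192 ± 145 CPM in WD (SD, n = 5 each), a log2 fold change of -2.74 ± 0.46 (adjusted p = 0.00191). C6, which joins C5b at the start of pore assembly (chr15:4727175-4814967), had 109.6, 102, 53, 93.1 and 67.5 CPM in WD + NaKtide livers, against 171, 200.04, 332, 393 and 242 CPM in WD livers. These groups were separate too, with averages of 85.1 ± 23.9 CPM in WD + NaKtide and 268 ± 92.9 CPM in WD (SD, n = 5 each) and a log2 fold change of -1.65 ± 0.35 (adjusted p = 0.00876). C8b and C6 kept this call in all 6 alternatives and without any single library. Masp1 had 91.1, 82.6, 68, 71.1 and 79.4 CPM in WD + NaKtide livers, against 107, 101.2, 118, 140.5 and 106 CPM in WD livers. Every WD + NaKtide liver was below every WD liver, and Masp1 fell with a log2 fold change of -0.54 ± 0.13 (adjusted p = 0.0175). Masp1 lost its call for NaKtide on the Western diet without any 1 of WD + NaKtide libraries 3 and 4 or WD libraries 3 and 4 (adjusted p = 0.0554 to 0.0589). C8a lay below WD in every WD + NaKtide liver as well, at 169 to 298 CPM in WD + NaKtide and 323 to 699 CPM in WD, but -0.88 ± 0.29 (adjusted p = 0.0812) did not pass. C8g, the gamma chain of C8, had 0.11 ± 0.17 (adjusted p = 0.716), and C9 -0.10 ± 0.31 (adjusted p = 0.860).

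Cfb had 68.7, 115, 157, 162 and 143 CPM in WD + NaKtide livers, against 98.8, 74.6, 59.5, 72.2 and 84 CPM in WD livers. WD + NaKtide library 1 fell inside the WD range, and Cfb rose with 0.73 ± 0.21 (adjusted p = 0.0479). Cfb lost its call for NaKtide on the Western diet without any 1 of WD + NaKtide libraries 2, 3, 4 and 5 or WD libraries 2, 3, 4 and 5 (adjusted p = 0.0678 to 0.149). Cfp had 44.3, 87.1, 67.2, 65.5 and 70.1 CPM in WD + NaKtide livers, against 50.8, 24.3, 24, 33.1 and 37.8 CPM in WD livers. WD + NaKtide library 1 again overlapped the WD group, and Cfp rose with 0.97 ± 0.27 (adjusted p = 0.0409). Cfp lost its call for NaKtide on the Western diet without any 1 of WD + NaKtide libraries 2, 3, 4 and 5 or WD libraries 2, 3, 4 and 5 (adjusted p = 0.0654 to 0.130). Cd59a, the surface inhibitor of the pore, had 144, 222, 245, 249.9 and 235 CPM in WD + NaKtide livers, against 158, 144, 111, 82.3 and 134 CPM in WD livers. Library 1 of WD + NaKtide was the low value, and Cd59a rose with 0.80 ± 0.20 (adjusted p = 0.0234). Cd59a lost its call for NaKtide on the Western diet without any 1 of WD + NaKtide libraries 3, 4 and 5 or WD libraries 3 and 4 (adjusted p = 0.0600 to 0.0792). Macrophage markers summed to 407 to 597 CPM in WD + NaKtide livers and 158 to 359 CPM in WD livers, with 11 of the 12 markers above 1 CPM on average and Itgam the exception, at 0 in 1 liver. Their part in the Cfp and Cfb results was not tested. C1qa, C1qb and C1qc did not pass, at 0.62 ± 0.25 (adjusted p = 0.134), 0.57 ± 0.26 (adjusted p = 0.173) and 0.54 ± 0.27 (adjusted p = 0.213), and the receptor C3ar1 had 0.89 ± 0.32 (adjusted p = 0.103). As a percentage of the macrophage sum, the C1q chains made 44.9 to 65.5% in WD + NaKtide livers and 65 to 88.5% in WD livers. This comparison called 2 members without any 1 of WD + NaKtide libraries 3 and 4 or WD libraries 3 and 4. It called 3 without WD + NaKtide library 5 and 10 without WD library 1. Without both WD + NaKtide library 1 and WD library 1 it called 12. These counts are given without the share of all genes called in each fit.

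NaKtide on the control diet gave 0 called members in liver by edgeR, where 1.55% of the 12991 genes tested were called. At an unadjusted p under 0.05 by edgeR there were 5 of the 29 members tested, against 2458 of the 12991 genes. DESeq2 called 1 member, and its share of all genes is not given here. C8b had -0.88 ± 0.43 (adjusted p = 0.265) and C6 -0.74 ± 0.34 (adjusted p = 0.247), so the falls of these genes with NaKtide did not pass here, and their interactions, -1.86 ± 0.61 (adjusted p = 0.0667) and -0.91 ± 0.48 (adjusted p = 0.214), did not pass either. The interaction was called for 3 members, Cfb at 1.29 ± 0.30 (adjusted p = 0.0203), Masp1 at -0.65 ± 0.18 (adjusted p = 0.0432) and C4bp at -1.20 ± 0.35 (adjusted p = 0.0487), where 5% of the 12991 genes tested were called (2.07% higher and 2.93% lower). This count was 9 without WD + NaKtide library 1, 6 without WD library 1, 5 without CD + NaKtide library 2, and 1 without any 1 of WD + NaKtide libraries 2, 3, 4 and 5, WD libraries 2 and 3, CD + NaKtide libraries 1, 4 and 5 or CD libraries 1, 4 and 5. Cfb had 77.2, 102, 81.1, 54.8 and 61.2 CPM in CD + NaKtide livers, against 122, 89.98, 135, 113 and 96.3 CPM in CD livers. These groups overlapped, with 4 of the 5 CD + NaKtide livers below every CD liver, and the Cfb interaction was called without any single library. Masp1 had 109, 106, 98.7, 118 and 107 CPM in CD + NaKtide livers, against 83.8, 116, 117, 96.3 and 86.3 CPM in CD livers, with overlap. Masp1 lost its call in the interaction without any 1 of WD + NaKtide libraries 2, 3, 4 and 5, WD libraries 2, 3 and 4, CD + NaKtide libraries 1, 4 and 5 or CD libraries 1, 4 and 5 (adjusted p = 0.0592 to 0.0942). C4bp had 394, 205, 184, 184 and 184 CPM in WD + NaKtide livers, against 228, 384, 467, 562 and 408 CPM in WD livers. C4bp had 455, 454, 416, 439 and 369 CPM in CD + NaKtide livers, against 409, 456, 209, 305 and 272 CPM in CD livers. WD + NaKtide library 1 stood apart from the other 4 of its group, and both pairs overlapped. C4bp lost its call in the interaction without any 1 of WD + NaKtide libraries 2, 3, 4 and 5, WD libraries 2, 3, 4 and 5, CD + NaKtide libraries 1, 3, 4 and 5 or CD libraries 1, 3, 4 and 5 (adjusted p = 0.0523 to 0.104).

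Of the 26 further complement genes 21 were tested in liver. In WD over CD, Cfd, factor D, which cleaves factor B, had 30.7, 28.9, 17.8, 0.169 and 12.2 CPM in WD livers, against 1.18, 2.27, 0.630, 0.432 and 0.195 CPM in CD livers. Cfd lay near the counting floor in WD library 4, at 0.169 CPM, and in CD library 5, at 0.195 CPM, so the order of these 2 is not read. The other 4 WD livers lay above every CD liver. Cfd had a log2 fold change of 4.15 ± 0.79 (adjusted p = 0.00218), and Susd4, a complement inhibitor, had -1.33 ± 0.39 (adjusted p = 0.0373). These were 2 of 21, where 8.44% of all genes were called. The 8 adipocyte genes summed to 30.7 to 218 CPM in WD livers and 31.8 to 57.9 CPM in CD livers, with Adipoq, Plin1, Lep and Retn under 1 CPM on average, and their part in the Cfd value was not tested. With NaKtide on the Western diet, Susd4 fell with -1.58 ± 0.44 (adjusted p = 0.0408) and Fcna, the plasma ficolin, with -0.64 ± 0.19 (adjusted p = 0.0491). None of the 21 was called for NaKtide on the control diet or in the interaction.

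In subcutaneous fat 1 of 22 members tested was called, C8g, lower in WD than in CD, where 5.61% of the 15226 genes tested were called (3.4% lower). C8g had 1.57, 2.66, 1.27, 1.01 and 1.59 CPM in WD, against 3.55, 3.47, 4.74, 2.62 and 10.8 CPM in CD. CD library 5 was far above the rest, WD library 2 reached into the CD range, and the log2 fold change was -1.63 ± 0.36 (adjusted p = 0.0158). C8g lost its call for WD over CD without any 1 of WD libraries 3 and 4 or CD library 5 (adjusted p = 0.0504 to 0.0562). Without CD library 4 the count was 2. CD library 5 held 988 CPM of hepatocyte genes, against 7.55 to 96.4 CPM in the other 19 subcutaneous libraries, and the part of liver RNA in the C8g value was not tested. Without the 7 libraries above 10000 CPM of muscle genes, which left 1 CD library, taken to vary like the other groups, C8g had -0.70 (adjusted p = 0.926). C1qa, C1qb and C1qc had log2 fold changes of 0.33 ± 0.31 (adjusted p = 0.532), 0.40 ± 0.35 (adjusted p = 0.503) and 0.20 ± 0.28 (adjusted p = 0.681) for WD over CD, C3 -0.02 ± 0.33 (adjusted p = 0.981), Serping1 0.80 ± 0.30 (adjusted p = 0.112), C3ar1 0.02 ± 0.52 (adjusted p = 0.990) and C5ar1 -0.09 ± 0.40 (adjusted p = 0.917). Macrophage markers summed to 921 to 1342 CPM in WD and 427 to 1828 CPM in CD. NaKtide gave 0 called members by edgeR in subcutaneous fat on the Western diet, on the control diet and in the interaction. In each, 0% of the 15226 genes tested were called. At an unadjusted p under 0.05 by edgeR there were 2, 1 and 1 members, against 1874, 918 and 1712 of the 15226 genes. DESeq2 called 0, 0 and 1 members, and its share of all genes is not given here. None of 16 further complement genes was called in any subcutaneous comparison.

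Between the depots on the control diet, 14 of 31 members differed, 4 higher and 10 lower in visceral than in subcutaneous fat, where 27.8% of the 17788 genes tested were called (20.7% higher and 7.13% lower). Clu, C4bp, Cfi and C8g were higher. C1qa, C1qb, C1qc, C1ra, C1s1, C1rl, C3, Cfp, Cd55 and C5ar1 were lower. The members' median log2 fold change was -0.59, against 0.16 over all genes. None of the 31 was called without the 6 visceral libraries rich in epididymis and testis genes, which leaves CD libraries 1 and 2 in visceral CD. Without visceral CD library 5 alone the count was 6, and without subcutaneous CD library 2 it was 8. These reduced fits are given without the share of all genes called, so their counts are not read as particular to complement.

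Clu had 40.3, 26, 1199, 849.6 and 1199 FPKM in CD visceral fat, against 25.1, 28.8, 12.9, 10.7 and 23.4 FPKM in CD subcutaneous fat. C4bp had 1.36, 0.152, 131, 93.2 and 73.2 FPKM in CD visceral fat, against 0, 0, 0, 0.0168 and 0.403 FPKM in CD subcutaneous fat. Both genes were high in visceral CD libraries 3, 4 and 5, and in visceral CD library 2 they lay within the subcutaneous range. Their log2 fold changes were 5.00 ± 1.11 (adjusted p = 0.00417) and 9.52 ± 2.22 (adjusted p = 0.00512). C1ra had 21, 21.5, 11.5, 9.23 and 5.37 FPKM in CD visceral fat, against 38.4, 30.3, 23.1, 41.9 and 33.2 FPKM in CD subcutaneous fat. Cd55 had 4.05, 2.38, 1.53, 0.867 and 3.82 FPKM in CD visceral fat, against 5.69, 5.30, 5.21, 4.90 and 5.79 FPKM in CD subcutaneous fat. C1ra and Cd55 were lower in every visceral library than in any subcutaneous one, with -1.31 ± 0.31 (adjusted p = 0.00565) and -1.14 ± 0.35 (adjusted p = 0.0166), but without the same 6 libraries C1ra had -0.68 (adjusted p = 0.333) and Cd55 -0.78 (adjusted p = 0.544). C1qa had 85.5, 90.1, 48.3, 52.5 and 24.3 FPKM in CD visceral fat, against 87.2, 245, 68.1, 142 and 124 FPKM in CD subcutaneous fat. C1qc had 48.2, 45.5, 28.8, 30.7 and 12.9 FPKM in CD visceral fat, against 50.5, 123, 35.4, 69.5 and 63.1 FPKM in CD subcutaneous fat. For both chains the groups overlapped and visceral CD library 5 was the lowest value. Their log2 fold changes were -1.17 ± 0.33 (adjusted p = 0.0124) and -1.06 ± 0.30 (adjusted p = 0.0118). C1qa lost its call between depots without any 1 of visceral CD library 5 or subcutaneous CD library 2 (adjusted p = 0.0549 to 0.0622). C1qc lost its call between depots without any 1 of visceral CD library 5 or subcutaneous CD library 2 (adjusted p = 0.0505 to 0.0612). C1rl had 3.79, 3.12, 1.79, 2.05 and 0.835 FPKM in CD visceral fat, against 3.54, 6.99, 3.78, 7.18 and 3.26 FPKM in CD subcutaneous fat. C5ar1 had 2.30, 3.51, 1.19, 1.23 and 0.222 FPKM in CD visceral fat, against 3.52, 17.7, 2.01, 5.90 and 4.28 FPKM in CD subcutaneous fat. C1rl and C5ar1 overlapped too, with -1.12 ± 0.32 (adjusted p = 0.0133) and -1.97 ± 0.49 (adjusted p = 0.00645), and subcutaneous CD library 2 was the highest C5ar1 value. C1rl lost its call between depots without visceral CD library 5 (adjusted p = 0.0573).

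The Western diet effect differed between the depots for 7 of 31 members, all with a larger rise in visceral than in subcutaneous fat, where 2.23% of the 17788 genes tested were called (1.71% higher). The difference in log2 fold change was 2.73 ± 0.54 (adjusted p = 0.0104) for C3, 3.21 ± 0.67 (adjusted p = 0.0129) for C5ar1, 3.13 ± 0.70 (adjusted p = 0.0171) for C3ar1, 1.80 ± 0.42 (adjusted p = 0.0198) for C1qc, 1.95 ± 0.48 (adjusted p = 0.0261) for C1qb, 1.89 ± 0.47 (adjusted p = 0.0269) for C1qa and 1.69 ± 0.43 (adjusted p = 0.0301) for Serping1. All of these contain the visceral CD libraries. The reduced fits below are given without the share of all genes called. Their counts are therefore not read as particular to complement. Without the 6 visceral libraries rich in epididymis and testis genes, which leaves 2 visceral CD libraries, none of the 7 was called, with differences of 1.29 (adjusted p = 0.335) for C1qa, 1.38 (adjusted p = 0.356) for C1qb, 1.25 (adjusted p = 0.276) for C1qc, 2.15 (adjusted p = 0.205) for C3, 1.20 (adjusted p = 0.335) for Serping1, 2.81 (adjusted p = 0.246) for C3ar1 and 2.36 (adjusted p = 0.205) for C5ar1. Leaving out 1 library gave 2 called members without visceral WD library 3, 3 without any 1 of visceral CD library 3 or subcutaneous CD library 2, 4 without any 1 of visceral CD library 4 or subcutaneous WD library 2, and 11 without visceral CD library 2. C1qa lost its call in the depot difference without any 1 of visceral WD library 3, visceral CD libraries 3 and 4, subcutaneous WD libraries 2 and 4 or subcutaneous CD library 2 (adjusted p = 0.0518 to 0.0922). C1qb lost its call in the depot difference without any 1 of visceral WD library 3, visceral CD libraries 3 and 4, subcutaneous WD library 2 or subcutaneous CD library 2 (adjusted p = 0.0507 to 0.0922). C1qc lost its call in the depot difference without any 1 of visceral WD library 3, visceral CD library 3 or subcutaneous CD library 2 (adjusted p = 0.0514 to 0.0674). Serping1 lost its call in the depot difference without any 1 of visceral WD libraries 3 and 4, visceral CD libraries 3, 4 and 5, subcutaneous WD libraries 2 and 5 or subcutaneous CD libraries 1, 4 and 5 (adjusted p = 0.0516 to 0.0780). C3ar1 lost its call in the depot difference without any 1 of visceral WD library 3 or subcutaneous CD library 2 (adjusted p = 0.0533 to 0.0597).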

How the data were processed

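RNA from 60 mouse libraries was prepared with a stranded TruSeq mRNA kit, per the labels' protocols. Reads of 50 bases, sequenced as pairs, were processed with Trimmomatic 0.38, HISAT2 2.1.0, GRCm38 and DESeq2 1.20.0, per the submitters' processing notes. The sources used here do not name the counter, its strand setting or the annotation. The authors deposited raw counts per gene, a signal table that equals these counts divided by 1 size factor per library (ratios constant within 1e-06), and FPKM scaled by the same factors. FPKM was used for levels between genes and tissues, counts for all tests, and the signal table only for that check. Gene symbols came from GENCODE release 21 of the mouse set and matched 54079 of 54232 IDs.

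Tests used edgeR 4.0.16 (R 4.3.3, limma 3.58.1) with TMM scaling, filterByExpr by group (minimum count 10, total 15), a quasi-likelihood fit per tissue, both fats together or all libraries, and Benjamini-Hochberg adjustment over all genes tested. Tests covered 12991 genes in liver, 15226 in subcutaneous and 17235 in visceral fat, 17788 in both fats and 18175 in all. CPM values are TMM-scaled within a tissue, ± gives the SD for CPM and the standard error for log2 fold changes. Of 31 members, those called in a comparison, up to 8 of smallest p, are given by library. The script was tested on simulated data. The members, further complement genes and marker lists were chosen with earlier results of these data known. Alternatives were DESeq2 1.42.0, its size factors, no filter, a replicate block, each library left out and the libraries that stood apart left out.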

Additional observations from a re-analysis of the deposited data

Results flagged for a closer look

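Of 53 sets of 5 libraries checked for a far value, 7 had 1 library whose gap to the nearest other exceeded Dixon's 95% critical value, and chance flags about 1 in 20 such sets. In liver, WD library 4 had 60.9 CPM of C2 and 3800.4 CPM of C3, above the other WD livers, and WD + NaKtide library 1 had 144 CPM of Cd59a, below the rest of its group. In subcutaneous fat, CD library 5 had 10.8 CPM of C8g. In visceral fat, WD library 1 had 582 CPM of Serping1, low for its group, WD library 3 had 106 CPM of C3ar1, and WD + NaKtide library 5 had 27.1 CPM of C8g, both high.

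The NaKtide effect differed between the diets by an interaction test for 19 members and tissues. Of all genes tested, 5% were called in the interaction in liver and 30.7% in visceral fat. Without the 6 visceral libraries rich in epididymis and testis genes, C1ra, C4b, Hc, C8a and C4bp were not called in visceral fat. In liver the interaction was -0.65 for Masp1, 1.29 for Cfb and -1.20 for C4bp on the log2 scale. In visceral fat it was -3.23 for C1qa, -3.73 for C1qb, -3.12 for C1qc, -1.53 for C1ra, -2.56 for C1rl, -2.53 for C4b, -3.82 for C3, -2.38 for Cfb, 5.63 for Hc, 4.88 for C8a, 3.90 for C8g, 11.71 for C4bp, -3.59 for Serping1, -5.41 for C3ar1, -4.59 for C5ar1 and -4.14 for C5ar2. The Western diet effect differed between visceral and subcutaneous fat by 1.89 for C1qa, 1.95 for C1qb, 1.80 for C1qc, 2.73 for C3, 1.69 for Serping1, 3.13 for C3ar1 and 3.21 for C5ar1. Of all genes tested, 2.23% were called in this comparison, and none of these members was called without the same 6 libraries. That reduced fit is given without the share of all genes called.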

How the results depend on the processing

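None of the 111 pairs of a called member and a comparison changed direction in any alternative run. Of 2066 values in alternatives, 1770 kept the call and 296 lost it, and 62 pairs kept it throughout. The counts below are called members, given without the share of all genes called in each run. The cause of each shift was not tested. Without the low-count filter, WD over CD in liver gave 1 and NaKtide on the Western diet in visceral fat 4. DESeq2 gave 1 for NaKtide on the control diet in liver, 8 for the liver interaction and 1 for the subcutaneous interaction. Without liver CD libraries 2 and 4 (muscle genes) the liver interaction gave 1, and without WD library 1 and WD + NaKtide library 1 it gave 9 and NaKtide on the Western diet 12. Without muscle-rich subcutaneous libraries, which leaves 1 CD library that is taken to vary like the other groups, the diet comparison gave 0. Without the tract-rich visceral libraries, NaKtide on the Western diet gave 13 in visceral fat, the depot comparison 0 and the depot difference 0.

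Leaving out 1 library gave 1 to 5 for WD over CD, 2 to 10 for NaKtide on the Western diet, 0 to 1 for NaKtide on the control diet and 1 to 9 for the interaction in liver. In subcutaneous fat it gave 0 to 2 for diet and 0 to 0 for the other 3 comparisons. In visceral fat it gave 11 to 20 for diet, 4 to 10 for NaKtide on the Western diet, 8 to 12 for NaKtide on the control diet and 12 to 18 for the interaction. The depot comparison gave 6 to 20, the depot difference 2 to 11 and liver over fat 26 to 27.

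Replicate numbers did not pair the libraries: the median correlation of same-numbered deviations was -0.29 to 0.22 over the 15 comparisons, and in none was every pair over 0.1. It was highest for NaKtide on the control diet in subcutaneous fat, where 3 of 5 pairs were over 0.1. With the replicate number as a block, NaKtide on the Western diet gave 2 and the interaction 0 in liver, and the other counts stayed within 1.5 times, among them 17, 8, 9 and 16 in visceral fat. DESeq2's size factors in edgeR moved the median of all genes by 0.14 on the log2 scale in the visceral interaction and by under 0.1 elsewhere. The size of change that could be found was limited: on counts simulated for WD over CD, 2-fold changes were recovered at 68% in liver, 46% in subcutaneous and 8% in visceral fat, and 4-fold changes at 98%, 90% and 56%.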
